A study of Mus musculus with 2 samples.

Results

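The cadherin superfamily genes of mouse Flk1+Tie2+ cells were examined with and without a pulse of Mesp1, a transcription factor of early mesoderm. They were all genes named Cdh followed by a number, all Pcdh genes, Fat1 to Fat4, Dchs1 and Dchs2, and Celsr1 to Celsr3 that had a probe set annotated with exactly 1 gene symbol. This gave 64 of 18193 genes, measured by 111 probe sets. The dox sample came from A2lox.Mesp1 embryonic stem cells (129/Ola background) given 250 ng/mL doxycycline (dox) on day 2, which switches on a Mesp1 transgene, and the labels place the end of exposure at day 4. The no dox sample came from the same transgenic line, left untreated. Both were grown as embryoid bodies and sorted on day 5 for surface Flk1 and Tie2. Only the dox sample had dox itself, so an effect of the drug and an effect of Mesp1 cannot be told apart.

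Each condition had 1 array, so there is no replicate error, no test and no p-value, and each difference compares these 2 samples. Signals are linear and in arbitrary units. Differences are dox minus no dox on the log2(signal + 16) scale, and folds are that difference taken back to the linear scale. A gene is represented by its brightest probe set, and it passed the signal filter when its signal reached the array's median (127 with dox, 112 without) on at least 1 array. The spread between probe sets of the same gene, pooled over all genes, was 0.48 log2 units below a mean signal of 500 and 0.26 above it. It measures probe effects, not differences between cultures.

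Mesp1 had a signal of 10977 with dox and 2433 without dox. Of 10 endothelial markers, all passed the filter and their summed signal was 42074 with dox and 43043 without dox. Of 10 mesenchyme and smooth muscle markers, 9 were 2-fold or more higher with dox, 4 of which passed the filter through the dox array alone. The summed signal of all 10 was 40883 with dox and 5254 without dox, and Cnn1, at the floor of 1 without dox, was the only one at that floor. Of 8 cardiomyocyte markers past the filter, 6 were 2-fold or more higher, 3 of which passed through the dox array alone. The summed signal over all 9 was 7966 with dox and 2192 without dox. Past the filter, 5.69% of all genes were 2-fold or more higher and 2.06% lower. None of the 8 blood markers was 2-fold higher, and their summed signal was 6528 with dox and 10637 without dox. Of the 6 blood markers past the filter, 2 were 2-fold or more lower, Hbb-bh1 and Hba-x. Hba-x passed through the no dox array alone and had to be lower. The part of these other cell types in the results below was not tested, and in a sorted population fewer cells of a type and less RNA per cell cannot be told apart.

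Cadherins are calcium-dependent adhesion proteins. Classical cadherins bind the same protein on the neighbouring cell and are tied through catenins to the actin cytoskeleton. VE-cadherin holds endothelial cells together, N-cadherin and cadherin 11 are typical of mesenchymal cells, and protocadherins, many of them studied mainly in neurons, give weaker and more selective contacts. Fat and Dachsous proteins bind each other across cells and take part in planar polarity and growth control.

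The family split by member. VE-cadherin was nearly the same on both arrays, while cadherin 11, the protocadherins Pcdh17 and Pcdh18, Fat1 and a set of beta protocadherins were higher with dox. Cdh22 and the endothelial protocadherin Pcdh12 were lower. Of the 64 genes, 28 passed the signal filter (43.8%, against 64.8% of all genes). Of these 28, 10 were 2-fold or more higher with dox, beside 5.69% of all genes past the filter, and 2 were 2-fold or more lower, beside 2.06% of all genes. Among the 10 higher genes, 4 passed through the dox array alone and had to differ, so the share cannot be read as support for a change of the family. Without any filter, 13 of 64 members were 2-fold or more higher, against 4.77% of all 18193 genes, and 3 were lower, against 2.04%. The median difference was 0.21 for the 28 members and 0.02 for all 64, beside 0.05 for all genes past the filter. With the dox array scaled to the median of the no dox array, which moved the median of all genes to -0.13, 9 members were higher and 4 lower. Fat1 was then under 2-fold at 0.88, and Pcdh1 and Pcdh19 joined the lower genes at -1.09 and -1.02.

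**Figure D1:**
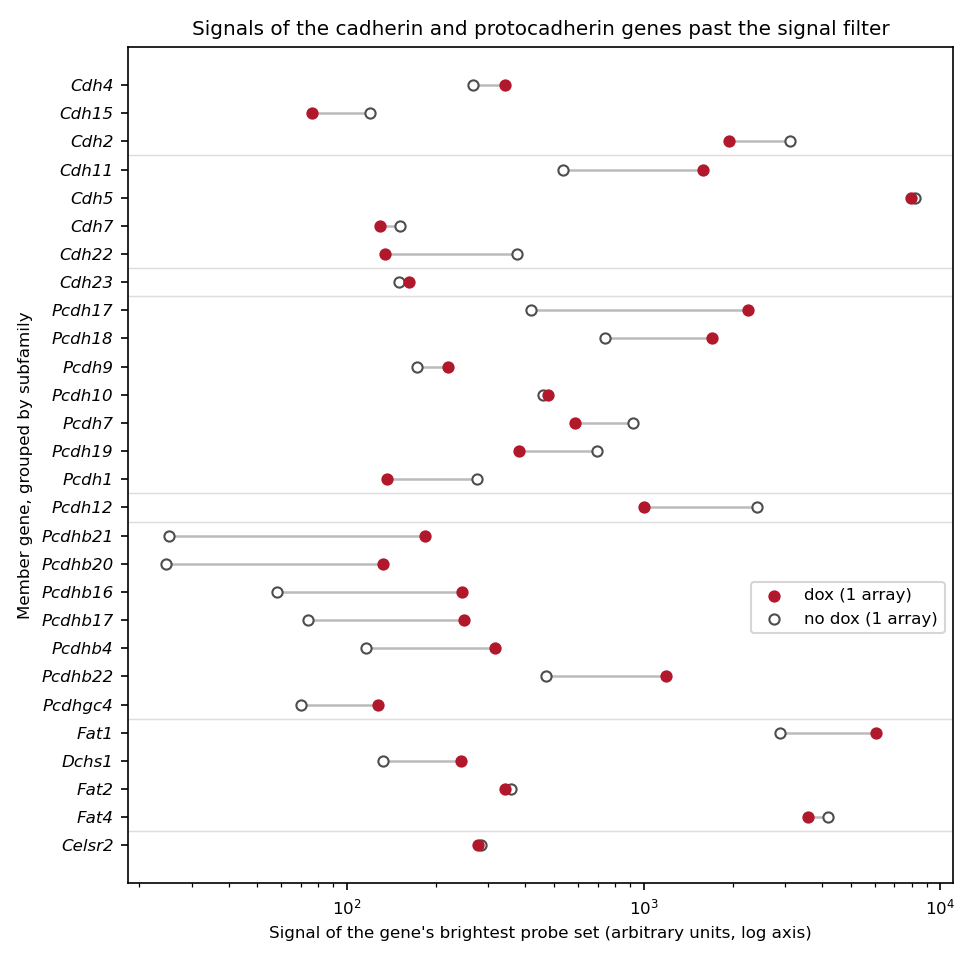
Signal of the brightest probe set (arbitrary units, log axis) for each of the 28 member genes past the signal filter, with filled points for the dox array and open points for the no dox array. Lines divide the subfamilies. The points of Cdh5 nearly coincide at 7948 and 8244, and Pcdh17 lies far to the right with dox. The beta protocadherins shown all lie to the right with dox, which for 4 of them followed from passing through the dox array alone.

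Among type I classical cadherins none of the 5 measured genes was 2-fold apart. Cdh2, which encodes N-cadherin, the cadherin of neural and cardiac tissue and of mesenchyme, had signals of 1941 with dox and 3120 without dox by its brightest probe set, a difference of -0.68. Its other probe set read 2122 with dox and 2235 without dox, a difference of -0.07. Neither probe set was higher with dox, whereas all 10 mesenchyme and smooth muscle markers were higher by some amount by their brightest probe set. Of these 10, however, 4 passed the filter through the dox array alone and had to be higher. Another probe set of Col1a1 gave -0.07. Cdh1, which encodes the epithelial E-cadherin, stayed below the filter with signals of 63.8 with dox and 110 without dox. The epithelial keratin genes Krt8 and Krt18 went the other way, at 5934 with dox against 1095 without dox for Krt8 and 3467 against 969 for Krt18. The summed signal of all 8 epithelial markers, most of it from these keratins, was 10044 with dox and 2565 without dox. Krt19 was also 2-fold or more higher, passing the filter through the dox array alone. The others did not share that direction to that extent, with Esrp1 at -1.60, Epcam at -0.46, Cldn6 at -0.15, Cldn7 at 0.05 and Esrp2 at 0.64, and all of these but Cldn6 lay below the filter. Cdh4, the gene for R-cadherin, had signals of 341 with dox and 266 without dox, a difference of 0.34, and a second probe set past the filter gave -0.16. Cdh15, the muscle cadherin gene, gave -0.56, passing through the no dox array alone. Cdh3, the gene for P-cadherin, was dim on both arrays, at 3.39 with dox and 6.82 without dox.

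Type II cadherins went in both directions. Cdh5 encodes VE-cadherin, the adhesion protein of endothelial junctions. Its signal was 7948 with dox and 8244 without dox, a difference of -0.05, well inside the spread of probe sets at that brightness. A dim second probe set gave 0.27. Cdh11, which encodes a cadherin of mesenchyme and bone-forming cells, had signals of 1585 with dox and 535 without dox, 2.90-fold higher. Its other probe set was dim, at 36.7 with dox and 29.0 without dox, so the difference rests on 1 probe set. Cdh22, which encodes a cadherin described mainly in brain and pituitary, had signals of 135 with dox and 375 without dox by its only probe set, 2.60-fold lower. Cdh11 and Cdh22 were thus more than 2-fold apart in opposite directions. Cdh7 was the fourth of the subfamily past the filter, at -0.21. The shares of all genes past it were 5.69% higher and 2.06% lower by 2-fold or more.

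The other 7 type II genes measured were dim on both arrays. Of these, 3 were nevertheless 2-fold or more apart, all higher with dox, beside 4.77% of all genes higher and 2.04% lower without a filter. They are named here after their values were seen. The largest was Cdh10, with a signal of 124 with dox and 6.96 without dox. That signal lay just under the dox array's median, and its other 3 probe sets gave 0.39 to 0.66, all higher too. Cdh8 had 40.6 with dox and 2.05 without dox, but another of its probe sets gave -0.01. Cdh20 had 49.7 with dox and 16.1 without dox. At such levels a fold depends mainly on the pseudocount.

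The other Cdh genes, which include the membrane-anchored Cdh13 and the hair-cell gene Cdh23, varied little. Their differences ran from -0.28 to 0.36 over 5 genes. Cdh13, the gene for T-cadherin, a cadherin without a cytoplasmic tail, had 115 with dox and 109 without dox. Cdh23, the only one of them past the filter, had 162 with dox and 149 without dox.

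**Figure D2:**
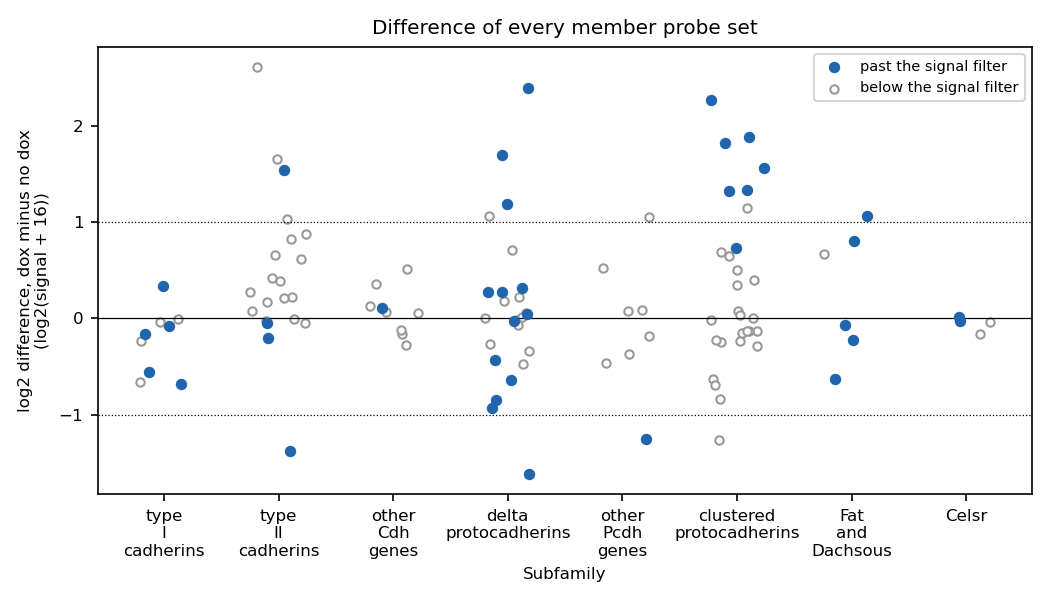
Log2 difference (dox minus no dox, log2(signal + 16)) of all 111 member probe sets by subfamily, filled where the probe set passed the signal filter and open where it did not. Dotted lines mark 2-fold. Horizontal placement within a subfamily is arbitrary. All 7 clustered protocadherin probe sets past the filter lie above 0, but 5 of them passed through the dox array alone and had to. Delta protocadherins spread on both sides.

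Delta protocadherins, the non-clustered group with conserved cytoplasmic motifs, held members that were more than 2-fold higher and others that were lower. Of 7 past the filter, 2 reached 2-fold in the higher direction and none in the lower direction by the brightest probe set. Of all genes past the filter, 5.69% were 2-fold or more higher and 2.06% lower. Pcdh17 had 2244 with dox and 416 without dox, 5.23-fold higher. Its second probe set had 1954 with dox and 593 without dox, a difference of 1.69, or 3.24-fold, so both probe sets were well past 2-fold in the same direction. Pcdh18 had 1707 with dox and 741 without dox, 2.28-fold higher. Another of its probe sets had 267 with dox and 218 without dox, a difference of 0.27, and the mean over its probe sets past the filter was 0.73, under 2-fold. The size for Pcdh18 is therefore uncertain, although all 3 of its probe sets were higher with dox.

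The lower delta protocadherins stayed within 2-fold by the brightest probe set and are named after their values were seen. Pcdh19, whose human counterpart is mutated in a form of epilepsy, had 379 with dox and 694 without dox, a difference of -0.85. Its other probe sets past the filter gave -1.61 and -0.43, so all 3 were lower with dox. Pcdh1 had 137 with dox and 275 without dox, a difference of -0.93, by its only probe set. Pcdh7 gave -0.64 by its brightest probe set (587 with dox and 923 without dox), but 0.28 and -0.03 by the others. Pcdh10 (0.05) and Pcdh9 (0.32) differed little. Pcdh8, a gene of paraxial mesoderm in the embryo, was dim at 51.5 with dox and 65.3 without dox, and its other probe set went the other way, at 44.52 with dox and 13.02 without dox. Pcdh11x was at the floor of 1 with dox and at 5.54 without dox.

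Promoter sequence is shown for 3 delta protocadherins, to compare them letter by letter. Pcdh17 and Pcdh18 were higher with dox and Pcdh19 lower, and other delta protocadherins that differed are not shown. The sequences are the 250 bases upstream of each gene's start in RefSeq, 5′ to 3′ on the gene's strand, with the 8 bases GATTGGCT in capitals. These hold the reverse complement of the CCAAT box. Pcdh17 lies on the plus strand at chr14:84443313-84443562, Pcdh18 on the minus strand at chr3:49757317-49757566 and Pcdh19 on the minus strand at chrX:133688994-133689243 (GRCm38.p6).
Pcdh17: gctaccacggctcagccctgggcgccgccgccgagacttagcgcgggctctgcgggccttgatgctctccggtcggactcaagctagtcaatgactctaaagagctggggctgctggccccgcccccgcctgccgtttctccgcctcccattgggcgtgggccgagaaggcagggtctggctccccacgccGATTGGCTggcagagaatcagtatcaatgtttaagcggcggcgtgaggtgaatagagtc
Pcdh18: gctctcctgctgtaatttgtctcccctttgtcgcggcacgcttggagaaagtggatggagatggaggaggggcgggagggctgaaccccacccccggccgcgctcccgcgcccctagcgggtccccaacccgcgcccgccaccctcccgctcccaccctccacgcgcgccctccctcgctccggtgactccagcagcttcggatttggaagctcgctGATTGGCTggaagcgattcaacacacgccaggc
Pcdh19: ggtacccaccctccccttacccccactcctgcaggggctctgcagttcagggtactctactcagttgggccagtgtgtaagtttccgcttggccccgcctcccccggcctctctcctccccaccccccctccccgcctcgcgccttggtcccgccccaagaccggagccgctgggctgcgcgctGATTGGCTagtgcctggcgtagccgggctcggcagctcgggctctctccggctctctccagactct

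The 8 bases begin 59 bases upstream of the start in Pcdh17, 33 in Pcdh18 and 66 in Pcdh19. They were noticed after the sequences were read. Members on chromosome 18, among them Cdh2, Pcdh1, Pcdh12 and all clustered protocadherins, were left out of the counts below. The members' shares are therefore not those of the whole family, while all windows kept that chromosome. Counting GATTGGCT on both strands, 5 of 29 windows of the 26 other members with a sequence held it (17.2%). Besides the 3 shown, these were the windows of Cdh18 and Cdh9. Of all 32851 windows of this length, 3.62% held it. The windows in which the run was noticed supply 3 of the 5, so these shares do not show that members hold it more often. It is carried by genes higher with dox (Pcdh17 and Pcdh18) and by 1 lower with dox by under 2-fold (Pcdh19). These 3 were picked for display, and whether the run goes with a direction was not tested. CCAAT on both strands, which includes every match of the longer run, was in 51.7% of the members' windows and 33.8% of all windows. CANNTG, the E-box that proteins of the class of Mesp1 bind and which reads the same on both strands, was in 48.3% of the members' windows and 66.2% of all windows. It was absent from the windows of Pcdh17 and Pcdh18 and occurred 1 time in that of Pcdh19. A match of letters is a description and not a bound site.

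Pcdh12 encodes a protocadherin of endothelial junctions that was also named VE-cadherin-2. It had a signal of 1002 with dox and 2417 without dox, 2.39-fold lower. Its other probe sets were dim and gave -0.46 and 0.09, so this value rests on 1 probe set. Beside it, VE-cadherin and the junction genes Pecam1 (497 with dox and 510 without dox) and Esam (4380 with dox and 5586 without dox) were within 2-fold. Cldn5, the endothelial tight junction gene, was lower with 1350 with dox and 3582 without dox. Robo4 (667 with dox and 241 without dox) and Eng (3922 with dox and 1626 without dox) were 2-fold or more higher. The remaining 7 of the 10 endothelial markers were within 2-fold, and the median of the list was -0.05. Of the other non-clustered protocadherins, Pcdh20 had 96.5 with dox and 91.0 without dox, and Pcdh15, a hair-cell gene, was dim with probe sets from -0.37 to 1.05.

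Clustered protocadherins are encoded in tandem and are used in neurons to give each cell a combination of surface labels. A total of 23 were measured, 22 beta genes and Pcdhgc4. Of the 23, 7 passed the filter and all 7 were higher with dox. By 2-fold or more 6 were higher, beside 5.69% of all genes past the filter. Of those 6, 4 passed through the dox array alone, as did Pcdhgc4, so the direction of these genes followed from the filter. Over all 23 genes with no filter, 14 were higher and 9 lower, and the median difference was 0.07. Of these 23, 6 were 2-fold or more higher and 1 lower, beside 4.77% and 2.04% of all genes. The larger differences lay in a few of its genes.

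Pcdhb22 had signals of 1194 with dox and 468 without dox, 2.50-fold higher by its only probe set. Pcdhb4 had 316 with dox and 116 without dox, 2.52-fold higher, while its dim second probe set gave -0.13. These are the beta genes that passed the filter on both arrays. The other beta genes past it had reached the median with dox alone.

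Pcdhb21 had 183 with dox and 25.3 without dox, 4.82-fold higher. Its second probe set, below the filter, had 77.0 with dox and 26.2 without dox, a difference of 1.14 in the same direction. Pcdhb20 had 133 with dox and 24.5 without dox, 3.68-fold higher. For both genes the size depended on the pseudocount. With a pseudocount of 1 the differences were 2.81 for Pcdhb21 and 2.39 for Pcdhb20, and with 64 they were 1.47 and 1.15.

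Pcdhb16 had 245 with dox and 58.1 without dox, 3.53-fold higher, with 2 dim probe sets at 0.51 and -0.28. Pcdhb17 had 248 with dox and 73.9 without dox, 2.94-fold higher. Pcdhgc4, a C-type member of the gamma cluster, had 127 with dox and 70.3 without dox, a difference of 0.73. It passed the filter through the dox array alone. Beta protocadherin genes resemble one another closely, so probe sets may read more than 1 of them and each name is uncertain to that extent.

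In the order of RefSeq the beta genes run along the chromosome by number. The stretch from Pcdhb16 to Pcdhb22 held 5 of the 6 beta genes that were 2-fold or more higher. It was marked off around them after their values were seen, and 4 of the 5 passed the filter through the dox array alone, so its values are only a description. In that stretch 6 of 7 genes were higher by any amount, with a median difference of 1.56 and a summed signal of 2148 with dox and 749 without dox. Pcdhb18, at 30.1 with dox and 34.6 without dox, was the exception. From Pcdhb1 to Pcdhb15, 7 of 15 genes were higher, with a median of -0.01 and a summed signal of 715 with dox and 589 without dox. Pcdhb4 alone was 2-fold higher there, and Pcdhb14 was more than 2-fold lower, at 1.05 with dox, near the floor, and 24.9 without dox. Its other probe set gave -0.25.

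**Figure D3:**
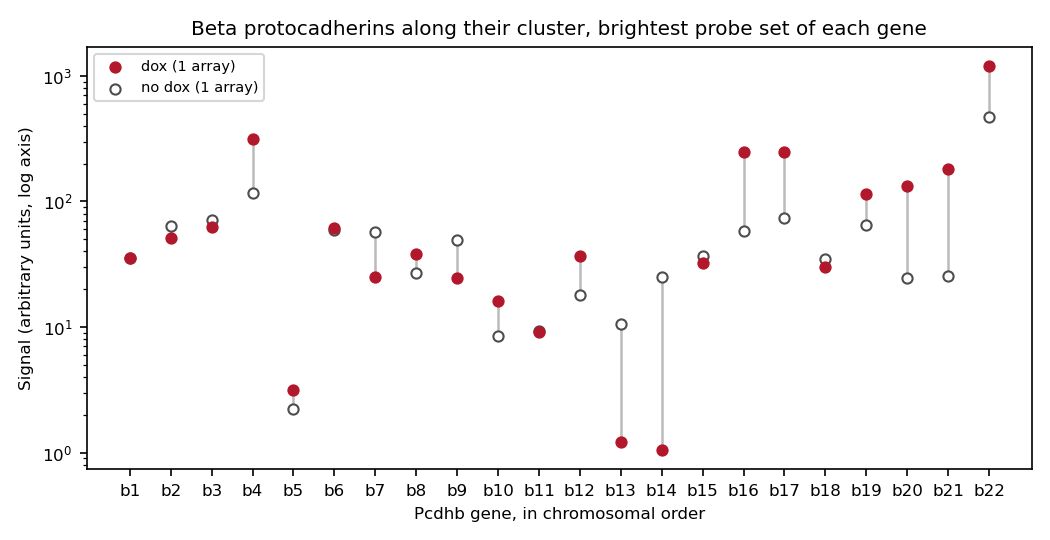
Signal (arbitrary units, log axis) of the brightest probe set of the 22 beta protocadherin genes in their order along the chromosome, filled for the dox array and open for the no dox array. The filled points lie above the open ones from Pcdhb16 to Pcdhb22 except at Pcdhb18, and Pcdhb4 is the only gene before Pcdhb16 that passed the signal filter.

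The protein-coding genes listed next to Pcdhb22 are Slc25a2, a mitochondrial carrier gene, and Taf7, which encodes a subunit of the general transcription factor TFIID. They were looked up after the beta genes were seen. Slc25a2 was dim, at 65.3 with dox and 75.4 without dox. Taf7 had 1328 with dox and 553 without dox by its brightest probe set, a difference of 1.24, and its other probe sets gave 0.51 and 0.38. Diaph1, beyond the gamma cluster, had 1416 with dox and 1439 without dox by its brightest probe set, and its dimmer ones gave 0.53 and -0.20. For the alpha cluster, 6 probe sets carry the symbols of 9 or 14 alpha genes at once and name no single gene. One of them, shared by 14 genes, had 208 with dox and 42.4 without dox, and another had 93.4 with dox and 45.3 without dox. The remaining 4 differed by -0.13 to 0.11.

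Fat1, which encodes a giant cadherin that organises actin at cell contacts and cell edges, had signals of 6054 with dox and 2882 without dox by its only probe set. It was 2.09-fold higher. Dchs1, the Dachsous ligand gene, had 243 with dox and 133 without dox, a difference of 0.80. Fat4, which encodes the receptor that binds Dachsous 1, did not follow, at 3569 with dox and 4175 without dox, and its other probe set was lower still, with 700 with dox and 1091 without dox. Fat2 had 340 with dox and 358 without dox. Fat3 was below the filter at 101 with dox and 57.9 without dox. By the brightest probe sets Dchs1 was thus higher and Fat4 lower, neither by 2-fold. The Fat4 difference of -0.23 was inside the spread of probe sets at that brightness (0.26), but its other probe set gave -0.63, outside it. That spread measures probe effects, so it cannot decide whether Fat4 differed between the cultures. The Dchs1 value rests on 1 probe set.

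Celsr genes, the mammalian counterparts of the fly polarity gene flamingo, were level. Celsr2 had 278 with dox and 284 without dox, and its 2 probe sets gave -0.03 and 0.01. Celsr1 was dim, with 44.2 with dox and 51.1 without dox, and Celsr3 was at or near the floor on both arrays.

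Most genes that encode partners of cadherins were within 2-fold, with exceptions in several of the lists. Among all genes past the filter, 5.69% were 2-fold or more higher and 2.06% lower. Of 12 catenins and plaque proteins past the filter, 2 exceeded 2-fold, both with the higher signal on the dox array, and the median was 0.09. Ctnnb1, the gene for beta-catenin, had 15150 with dox and 14917 without dox, and Ctnna1, the gene for alpha-catenin, had 16596 with dox and 14852 without dox, both named after their values were seen. Pkp2, a desmosomal plakophilin gene of heart muscle, had 2893 with dox and 1055 without dox, although its 4 probe sets ran from -0.39 to 1.44. Ctnna3, a catenin gene of heart muscle, had 195 with dox and 89.0 without dox and passed through the dox array alone. Its other probe set gave 0.28. The third by size was Ctnnal1 at 0.81, with its other probe set at 0.03.

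Of 7 measured desmosomal genes 3 passed the filter. Dsp, the gene for desmoplakin, had 6329 with dox and 1250 without dox, and Dsg2, a desmosomal cadherin gene, had 898 with dox and 146 without dox. Their probe sets ranged from 0.21 to 2.33 for Dsp and from 0.01 to 2.50 for Dsg2. None of these probe sets was lower with dox. Dsc2 was at 0.74 but passed the filter through the dox array alone, so its direction followed from the filter. On the same arrays the cardiomyocyte markers and the keratin genes were also higher, and their part in the desmosomal values was not tested.

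Of 12 planar polarity and Fat-Dachsous partner genes past the filter, 2 were 2-fold or more higher and 1 lower. Ankrd6, the counterpart of the fly polarity gene diego, had 1007 with dox and 263 without dox, with probe sets from -0.15 to 1.88. Prickle2 had 520 with dox and 174 without dox. Fzd6, a Frizzled receptor gene of planar polarity, had 80.1 with dox and 358 without dox, the lowest difference of the list at -1.96, and its 3 probe sets were all lower. Its brightest probe set passed the filter through the no dox array alone. Among 6 other cadherin superfamily genes past the filter, Clstn2, a calsyntenin gene, had 182 with dox and 21.2 without dox and alone passed 2-fold. It passed the filter through the dox array alone. Ret (-0.71) and Cdhr4 (0.50) followed. All 5 nectin and afadin genes past the filter were within 2-fold, the widest being Nectin3 (0.77), Nectin4 (0.51) and Pvr (0.19). So were the 4 genes of cadherin cleavage and junction phosphatases past it, with Ptprm at 0.48, Ptprb at 0.34 and Adam10 at 0.22. Nectin4 passed the filter through the dox array alone, so its direction followed from the filter. The probe sets of Pvr ran from -0.53 to 0.44 and those of Adam10 from -0.33 to 0.22.

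**Figure D4:**
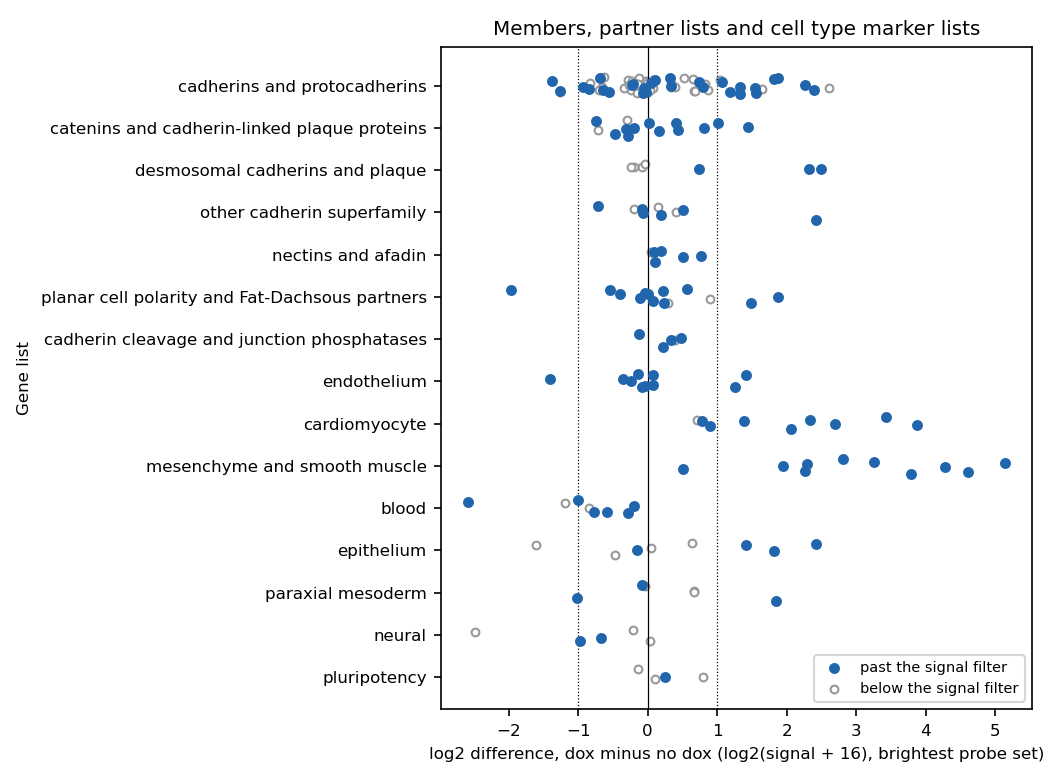
Log2 difference (dox minus no dox, log2(signal + 16)) of the 64 member genes, of the partner lists and of the cell type marker lists, 1 point per gene by its brightest probe set, filled where it passed the signal filter. Dotted lines mark 2-fold. Members spread on both sides of 0 and endothelial markers centre near 0. Mesenchyme and smooth muscle markers lie to the right, which for 4 of them followed from passing through the dox array alone.

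Probe sets of the same member disagreed in direction for some members. Of the 8 members with more than 1 probe set past the filter, 5 had all of them on the same side of 0. The pooled spread over these 8 genes was 0.47 log2 units, beside 0.38 for all genes. For all genes with a mean signal under 500 it was 0.48, and these comparisons were not matched for brightness. Members with 1 probe set numbered 35, and for them no check between probe sets exists, Cdh22, Fat1 and Pcdhb22 included.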

How the data were processed

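The deposited table holds linear signal intensity values per probe set, 45037 on each of 2 arrays. The sources used here do not state how the authors summarised and scaled them. The lowest deposited value is exactly 1, a floor, and no detection calls were used. Per the labels' protocols, 100 ng of total RNA was labelled with an Affymetrix 3' kit.

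Probe sets were named through the platform annotation: 34945 had 1 symbol and 932 several, which stayed unnamed. All 64 members carry the same symbol in RefSeq (GRCm38.p6). Coordinates are given for promoter windows only. Differences were computed with Python 3.11.15, numpy 2.4.6 and pandas 2.3.3, and the procedure was tested on simulated data. Only genes with a mean signal of 500 or more were changed there, by more than 2-fold. The simulation therefore does not show how well calls hold for dimmer members or near 2-fold. Alternatives covered the pseudocount, the scaling, the filter, the probe set summary and the threshold.

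Members and lists were chosen with earlier results of these data known. Members named are those past the filter and 2-fold apart, the 2 brightest of each subfamily, and Cdh1, Cdh2, Cdh5, Cdh11 and Pcdh12. For each partner list the 3 largest differences are named. Any other gene was named after its values were seen.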

Additional observations from a re-analysis of the deposited data

How the results depend on the processing

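The count of higher members was 10 of 28 by the reported settings. It was 9 or 10 of 28 with other pseudocounts, other scalings, the mean of probe sets or without probe sets that may cross-hybridise. Across these settings 4.46% to 6.07% of all genes were higher. With no filter the count was 13 of 64 members, beside 4.77% of all genes. A filter on both arrays left 6 higher and 2 lower of 22 members (3.82% and 1.54% of all genes), and a filter at the 75th percentile left 5 higher and 1 lower of 11 (4.73% and 1.83%). At a 4-fold threshold 2 were higher and 0 lower (2.01% and 0.21% of all genes past the filter). At 1.5-fold 12 were higher and 6 lower (11.8% and 7.06% of all genes past the filter). Scaling to the median gave 4 lower members, with 4.46% of all genes higher and 3.41% lower. The stricter filters hold fewer genes by construction. The median of the members ranged from -0.05 to 0.23, so its sign depended on the setting. Of 150 values of the 22 named members under alternatives, 8 moved by more than the spread between probe sets and none changed sign after a 2-fold difference. Besides those given above, they were Pcdhb16 (1.34) and Pcdhb17 (1.18) with a pseudocount of 64, and Fat4 (-0.63) without probe sets that may cross-hybridise. No paired analysis was possible because each condition has 1 array. Dim probe sets limit most members, since 36 of 64 lay below the filter on both arrays.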
